A study of Mus musculus with 16 samples.

Results

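The interferon-stimulated genes described here are 33 mouse genes picked by symbol for their known place in the interferon response. The list was drawn up with earlier results of these data known. Its counts by direction, given beside the shares of all genes, are therefore descriptions and not tests. All 33 were matched to a row of the count table, which holds 55487 genes, and all 33 were among the 24971 genes tested. They were followed in cultured heart slices from Swhtr null and WT mice. Swhtr is a nuclear long noncoding RNA of cardiomyocytes, transcribed divergently from Nkx2-5, and the question the design addresses is how slices that lack it respond to hypoxia and recovery.

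The study compared 4 groups of 4 RNA-seq libraries. Treated Swhtr null slices (genotype Swhtr3xpA/3xpA, with a transcriptional stop signal inserted into Swhtr) spent 7 d at 3% O2 and then 7 d at 21% O2. Untreated Swhtr null slices stayed at 21% O2 for 14 d, and treated and untreated WT slices were handled in the same 2 ways. All mice carried a C57Bl6/J background and were 8 weeks old when the hearts were taken, apex and base were removed, and all slices were kept in serum-containing medium. The slices came from 4 mice per genotype, and which library came from which mouse is not given in the sources used here, so libraries of one genotype can share mice and p-values measure the spread between these libraries. The null line was made by gene targeting in hybrid embryonic stem cells and backcrossed, so passenger sequence of the donor strain next to the insertion cannot be told apart from the insertion.

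Interferons are secreted proteins made when cells sense foreign or misplaced nucleic acid. They bind paired receptors on the cell surface, whose kinases JAK1 and TYK2 phosphorylate STAT2. STAT2 is held in a complex with IRF9 that enters the nucleus, binds a DNA element called the interferon-stimulated response element (ISRE) and switches on genes that sense, tag or degrade viral RNA and protein. In the heart the same genes are known to be induced in macrophages after infarction, and many of them keep a low basal level without infection.

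The ISRE is shown first because many of the genes share it. Promoter sequence was not used in the choice, but the genes were picked from a response that acts through this element. A high share is therefore built into the choice and is no separate support. Promoters running from 250 bases before to 50 after the start were read from RefSeq (GRCm38.p6) for 25 of the 33 genes. The ISRE core, 2 copies of GAAA with any 2 bases between them, read on either strand, was present in 14 of the 25 (56%), against 1079 of 27025 genes (3.99%). The longer form with a C after the second GAAA, which contains the core, was present in 12 of 25 (48%), against 0.944% of all genes. The gamma-activated site TTCNNNGAA, a palindrome, was present in 7 of 25 (28%), against 9.55% of all genes, and in Bst2 and Ifitm3 it overlapped an ISRE core. A match of letters is a description of the window and says nothing about binding in these slices.

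The 6 stretches below are printed 5′ to 3′ on the strand of the gene, with the ISRE core in capitals, for genes on which the comparisons turn. Each runs from 10 bases before the first core to 10 after the last. In Isg15 each of the 3 cores overlaps the next, in Ifit1 the 2 cores are apart, and in Stat2 the single core lies farther from the start than in the others.
Isg15, chr4:156200865-156200906, minus strand: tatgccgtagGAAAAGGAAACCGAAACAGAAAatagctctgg
Ifit1, chr19:34640775-34640823, plus strand: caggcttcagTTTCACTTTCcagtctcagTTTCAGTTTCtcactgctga
Oas1a, chr5:120907520-120907555, minus strand: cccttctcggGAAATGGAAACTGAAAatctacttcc
Bst2, chr8:71537577-71537612, minus strand: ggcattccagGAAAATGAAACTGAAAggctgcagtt
Gbp2, chr3:142620594-142620623, plus strand: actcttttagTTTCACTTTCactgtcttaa
Stat2, chr10:128270266-128270295, plus strand: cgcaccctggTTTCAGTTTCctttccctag

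The 33 genes lie on 14 chromosomes of mm10, several in families side by side. Ifit2, Ifit3 and Ifit1 lie in a row on chromosome 19 (34550694 to 34650009), Oas2, Oas3 and Oas1a on chromosome 5 (120730333 to 120907521), and Rsad2 and Cmpk2 are divergent neighbours 12752 bp apart on chromosome 12. Of the 33 genes, 12 overlap another annotated gene, among them Irf7 with Phrf1 and Dhx58 with Dhx58os on the opposite strand. Since no source gives the strand setting of the counting, reads of such partners cannot be told apart. Reads of near-identical relatives (Ifit3 and Ifit3b, Oas1a and Oas1g, the guanylate-binding proteins) can also be split between copies, and those levels are uncertain to that extent.

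The libraries held 17830351 to 29941903 counts each. Counts of any 2 libraries of a group differed by more than sampling noise (chi-square over degrees of freedom of at least 7.62). The table holds no row for Swhtr, so the genotype labels were not checked by it. Of the cell types the slices could hold, fibroblast markers summed to 22514 to 32363 counts per 1000000 (CPM) in every library and macrophage markers to 4016 to 13036 CPM. Cardiomyocyte markers (8 genes, Myh6 and Tnnt2 included) summed to only 9.39 to 93.4 CPM in treated Swhtr null slices, 5.64 to 11.0 CPM in untreated Swhtr null slices, 8.10 to 47.3 CPM in treated WT slices and 6.40 to 19.7 CPM in untreated WT slices, so the defining markers of the cell that expresses Swhtr were nearly absent after culture. Plasmacytoid dendritic cell markers, of the cells best known for type I interferon, summed to at most 0.499 CPM, with Siglech at 0 in all 16 libraries. In bulk tissue, fewer cells of a type and less RNA per cell cannot be told apart.

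Some Swhtr null libraries stood apart, those numbered 2 over all genes as well. Over all genes, chi-square over degrees of freedom was 50.9 to 76.6 for pairs with treated Swhtr null library 2. The other treated Swhtr null pairs gave 13.1 to 24.9. It was 32.0 to 39.8 for pairs with untreated Swhtr null library 2, against 8.17 to 12.4 for the other untreated Swhtr null pairs. For the counts of highest and lowest values below, the share over all genes was not computed. Of the 33 genes, 19 had their highest value of all 16 libraries in untreated Swhtr null library 3 (7 genes) or 4 (12 genes), and 15 had their lowest value in one of the 2 Swhtr null libraries numbered 2, while Mx1 was at 0 both in untreated Swhtr null library 2 and in untreated WT library 1. Treated library 2 was not low throughout, being the highest of its group for 10 genes and the lowest for 10, with a mean log2 CPM over the 28 members of at least 1 CPM of 3.20, against 3.15 to 3.28 in the other 3. Both libraries numbered 2 held the lowest macrophage marker sum of their group, 4016 CPM in the treated and 8022 CPM in the untreated one, and untreated Swhtr null library 4 held the highest sum of all, 13036 CPM. Untreated Swhtr null library 3, at 10706 CPM, lay below untreated Swhtr null library 1 (11182 CPM) and untreated WT libraries 3 and 4 (11629 and 12160 CPM). The part of macrophage content in the gene levels was not tested. Results that rest on these libraries are given with and without them.

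Levels spanned a wide range. Ifitm3, a membrane protein that blocks virus entry, was the highest per exon length at 223 CPM per kb, followed by Bst2, the tether that holds budding virions at the cell surface, at 68.0 CPM per kb, and Trim25, the ubiquitin and ISG15 ligase that acts on the RNA sensor RIG-I, at 25.3 CPM per kb. Below these 3 the steps were small: Oas1a, Stat2, Eif2ak2, Irf1, Irf9 and Ddx58 lay between 6.01 and 4.77 CPM per kb. Mx1, a GTPase that blocks influenza virus and is truncated in many laboratory mouse strains, was lowest at 0.0649 CPM per kb. In counts, which set the precision, 3 members had a mean above 50 CPM, 8 between 10 and 50 CPM, 17 between 1 and 10 CPM, and 5 (Oas2, Oas3, Mx1, Mx2 and Ifi44) below 1 CPM.

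**Figure D1:**
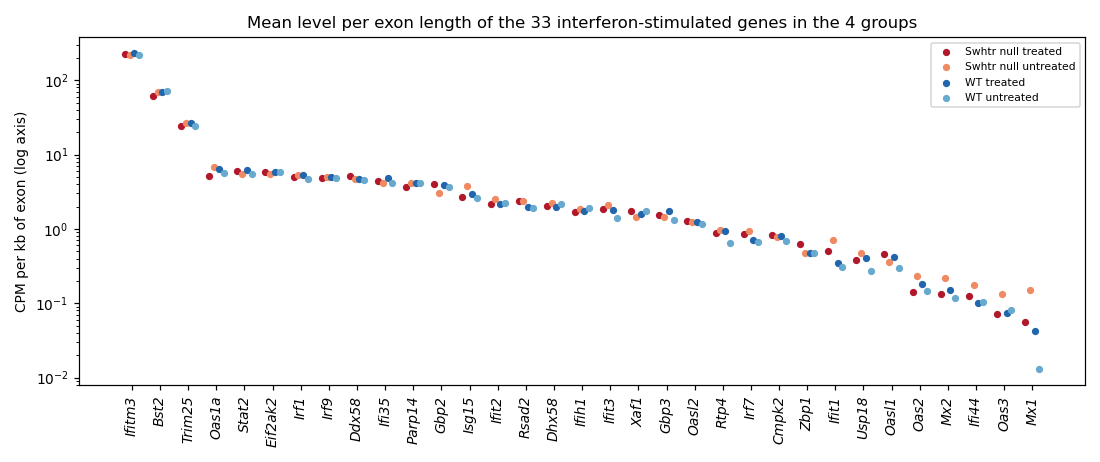
Mean level of each of the 33 genes in CPM per kb of exon (log axis), ordered by the mean over all libraries, with 1 point per group. The 4 points of a gene lie close together for the well expressed genes, from Ifitm3 at 223 CPM per kb downwards, and spread out among the lowest genes such as Mx1.

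No interferon-stimulated gene was called in any of the 5 comparisons, where a call needed an adjusted p under 0.05 (edgeR's quasi-likelihood test, Benjamini-Hochberg over all genes tested) and a change above 1.5-fold (0.58 on the log2 scale). The members are therefore given by values, with unadjusted p named as such, and none is said to have risen or fallen. DESeq2 and limma also called 0 members in each comparison. Here and below, limma was run with quality weights, which give libraries that scatter more a smaller part in the fit.

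Treated against untreated Swhtr null slices gave 0 of 33 members called. Over all genes tested, 79 were called higher (0.316%) and 76 lower (0.304%). That total of 155 was 616 with the library number as a block within genotype, and the member count was still 0. By direction alone, 12 members were higher and 21 lower in treated slices, against 51.6% of all genes higher and 48.3% lower. With the threshold set at an unadjusted p of 0.05 instead, 1 member was higher (8.69% of all genes were) and 2 were lower (7.84% of all genes); DESeq2 gave 1 and 1, limma 0 and 1. With the library number as a block these counts were 1 higher and 4 lower, and with the block within genotype 2 higher and 5 lower. They were 1 higher and 7 lower without untreated library 2, and 0 were lower without untreated library 3 or 4. The median log2 fold change of the members was -0.12, beside 0.012 over all genes. Without untreated libraries 3 and 4 the direction turned, with 25 members higher, 8 lower and a median of 0.13, and without both Swhtr null libraries numbered 2, 9 were higher and 24 lower, 9 of these with an unadjusted p under 0.05. Neither choice gave a call, and both were made after the values had been seen. In this comparison the macrophage markers were lower in 12 of 12 cases, 6 of them at an unadjusted p under 0.05 and 0 called, with a median of -0.67. With the block within genotype 7 of the 12 were called lower and the median was -0.73. In the fit without a block, cardiomyocyte markers, low in level, were higher in 8 of 8 cases, with a median of 2.78. Of these, 5 had an unadjusted p under 0.05 and 0 were called. Fibroblast markers were higher in 7 of 7 cases (median 0.21) and endothelial markers in 5 of 6 (0.24). The part of any of these cell types in the members' values was not tested.

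The member with the smallest p was Gbp2 (chr3:142620602-142638008), a guanylate-binding GTPase that attacks vacuoles around microbes. It had 11.3, 11.6, 8.62 and 8.51 CPM in treated Swhtr null slices, against 6.83, 8.32, 8.28 and 7.49 CPM in untreated Swhtr null slices. Every treated library was above every untreated one, the only member of 33 for which the groups did not overlap with treated slices higher; of all genes of at least 1 CPM, 5.19% did so, and 5.13% separated with treated slices lower, as 0 members did. The log2 fold change was 0.37 (SE 0.14, unadjusted p = 0.0154, adjusted p = 0.185 by edgeR), under the 1.5-fold threshold. In WT slices Gbp2 had 9.75, 11.8, 10.1 and 7.63 CPM treated and 9.97, 9.67, 9.06 and 8.19 CPM untreated (log2 fold change 0.09, SE 0.14), and the groups overlapped.

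Isg15 (chr4:156199424-156200818) encodes the ubiquitin-like protein that is joined to other proteins during the response. It had 1.97, 2.10, 1.87 and 2.15 CPM in treated Swhtr null slices, against 2.26, 2.14, 3.29 and 3.85 CPM in untreated Swhtr null slices. The untreated libraries 3 and 4 were the 2 highest of all 16, while the other untreated libraries lay near the treated ones. The log2 fold change was -0.51 (SE 0.23, unadjusted p = 0.0393, adjusted p = 0.273 by edgeR). In WT slices Isg15 had 2.94, 1.80, 1.84 and 2.23 CPM treated and 2.47, 1.89, 1.59 and 1.97 CPM untreated, with groups that overlapped and a log2 fold change of 0.15 (SE 0.24).

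Bst2 (chr8:71534255-71537456) had 51.4, 46.0, 62.0 and 59.7 CPM in treated Swhtr null slices, against 60.0, 51.9, 65.1 and 76.5 CPM in untreated Swhtr null slices. Library 2 was the lowest in both Swhtr null groups, which overlapped. The log2 fold change was -0.21 (SE 0.10, unadjusted p = 0.0469, adjusted p = 0.295 by edgeR), small against the range within untreated slices. Stat2 (chr10:128270559-128292849), the partner of IRF9, had 40.3, 33.6, 33 and 37.6 CPM in treated Swhtr null slices, against 35.4, 27.1, 34.7 and 32.8 CPM in untreated ones. Its log2 fold change was 0.15 (SE 0.08, unadjusted p = 0.0783, adjusted p = 0.365 by edgeR), and the groups overlapped.

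**Figure D2:**
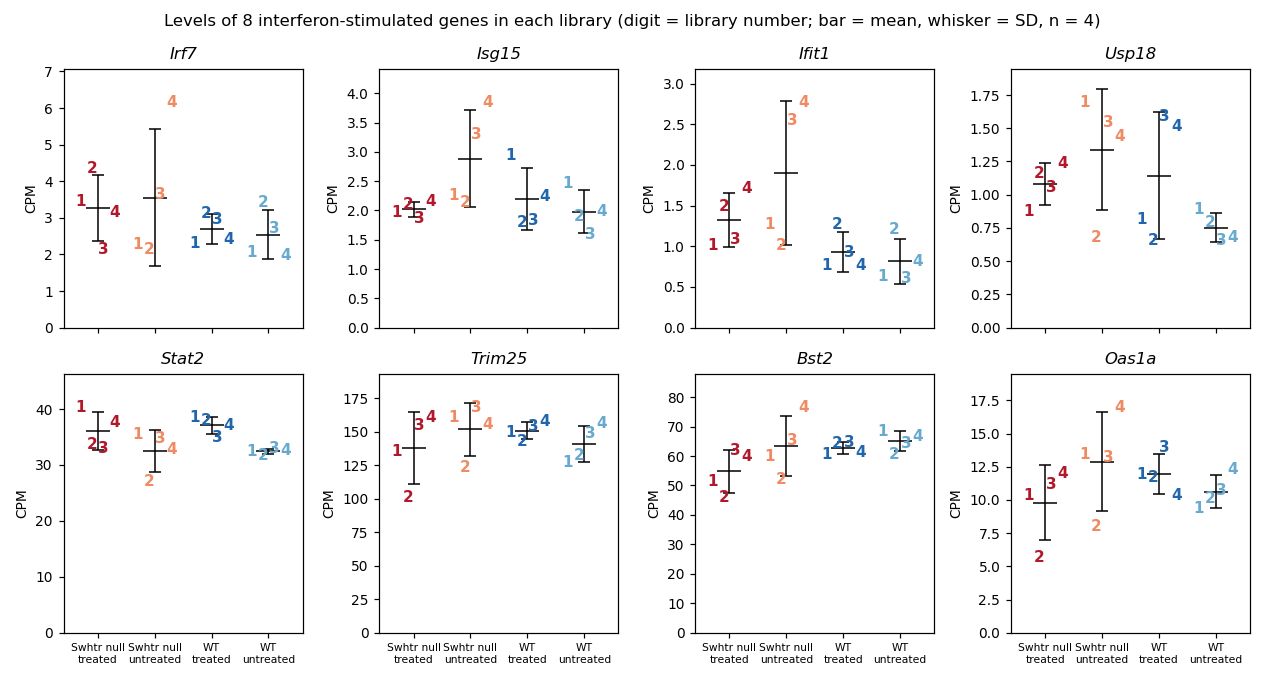
CPM of 8 interferon-stimulated genes in each of the 16 libraries, from left to right treated and untreated Swhtr null slices and treated and untreated WT slices; digits are library numbers, bars means and whiskers SD (n = 4). Untreated Swhtr null libraries 3 and 4 lie above the other libraries for Isg15 (3.29 and 3.85 CPM) and Ifit1 (2.54 and 2.77 CPM), and the Swhtr null libraries numbered 2 lie low for Trim25 and Oas1a.

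In WT slices treated against untreated, 0 of 33 members were called, and 0% of all genes in either direction. By direction 23 members were higher and 10 lower, against 51.9% and 48% of all genes; 3 were higher at an unadjusted p under 0.05 (2.62% of all genes), also by DESeq2 and limma, and 0 lower (2.2%). The median was 0.09, against 0.0081 over all genes. Macrophage markers were lower in 11 of 12 cases, with a median of -0.18 and 0 at an unadjusted p under 0.05. Cardiomyocyte markers were higher in 8 of 8 cases, with a median of 1.41, 2 of them at an unadjusted p under 0.05. The members with the smallest p were Stat2, Gbp3, Irf1 and Ifi35. Stat2 had 38.5, 38.0, 35.0 and 37.0 CPM in treated WT slices, against 32.4, 31.7, 32.9 and 32.7 CPM in untreated WT slices, a log2 fold change of 0.19 (SE 0.08, unadjusted p = 0.0269, adjusted p = 0.999 by edgeR). It was the only member whose WT groups did not overlap, with treated slices higher; 2.38% of genes of at least 1 CPM did the same, and 2.05% the opposite, as 0 members did.

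Gbp3 (chr3:142560026-142573209), the neighbour of Gbp2, had 5.51, 4.88, 5.51 and 7.20 CPM in treated WT slices, against 3.73, 5.52, 4.34 and 3.71 CPM in untreated WT slices, so the groups overlapped (log2 fold change 0.42, SE 0.18, unadjusted p = 0.0307, adjusted p = 0.999 by edgeR). Irf1 (chr11:53770014-53778374) encodes a transcription factor induced by interferon gamma. It had 21.0, 23.6, 18.4 and 22.1 CPM in treated WT slices, against 17.2, 20.8, 18.6 and 17.3 CPM in untreated WT slices (log2 fold change 0.21, SE 0.09, unadjusted p = 0.0389, adjusted p = 0.999 by edgeR). Ifi35 (chr11:101448407-101458698) had 8.58, 8.26, 8.56 and 8.30 CPM in treated WT slices, against 7.45, 8.61, 5.98 and 6.31 CPM in untreated WT slices (log2 fold change 0.25, SE 0.13, unadjusted p = 0.064). The treated libraries of Ifi35 were nearly equal and the untreated ones spread across them.

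**Figure D3:**
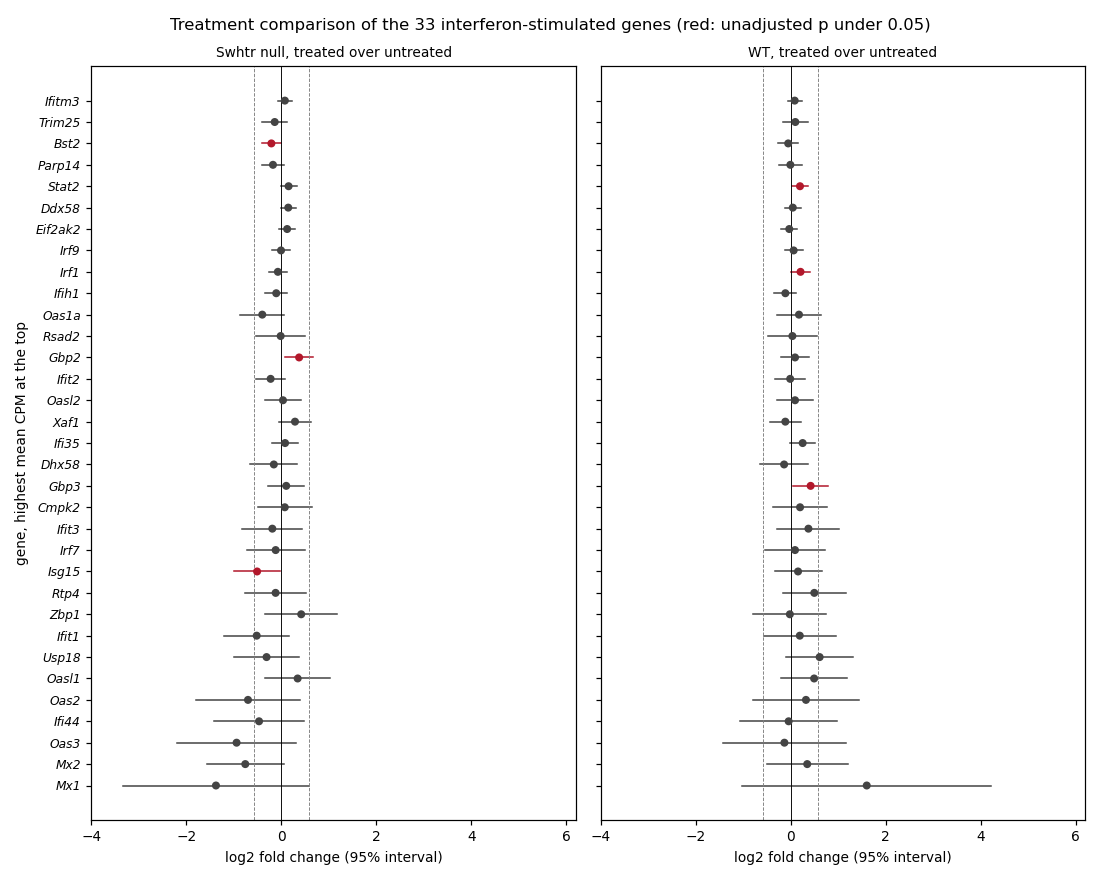
Log2 fold change of treated over untreated slices with 95% intervals for the 33 genes, in Swhtr null slices on the left and WT slices on the right; dashed lines mark 1.5-fold and red marks an unadjusted p under 0.05. Intervals are narrow for well expressed genes such as Ifitm3 and widest for Mx1, and most intervals cross 0.

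The 95% interval of the log2 fold change lay wholly within 2-fold for 25 of the 33 members in Swhtr null slices and for 24 in WT slices, and within 1.5-fold for 15 and 16 of them. For the remaining genes, which included all 5 under 1 CPM, a 2-fold change was not excluded. Width did not follow level alone, as Ifitm3 and Trim25 had similar mean levels (151 and 145 CPM) and an SE of 0.07 and 0.12. For Ifitm3, with 150, 171, 142 and 151 CPM in treated Swhtr null slices and 135, 158, 138 and 153 CPM in untreated Swhtr null slices, the interval ran from -0.08 to 0.22. For Trim25 (chr11:88999376-89020293) it ran from -0.40 to 0.12, with 135, 101, 155 and 161 CPM in treated and 161, 123, 168 and 155 CPM in untreated Swhtr null slices.

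In untreated slices, Swhtr null against WT, 0 of 33 members were called (0.0441% of all genes were called higher and 0.0561% lower). By direction, 25 members were higher in Swhtr null slices and 8 lower, against 49.8% and 50% of all genes. At an unadjusted p under 0.05, 6 were higher, where 2.72% of all genes were, and 0 lower (2.64%); DESeq2 gave 6 and limma 5 higher. The groups overlapped for all 33 members, where 1.47% of genes of at least 1 CPM separated with Swhtr null slices higher and 1.64% with them lower. The median of the members was 0.17, against 0 over all genes. Without untreated Swhtr null libraries 3 and 4 together, 13 members were higher and 20 lower. The median was then -0.053 and 0 members had an unadjusted p under 0.05. These 2 libraries hold the highest mean member levels of their group, so leaving them out lowers the Swhtr null side by choice. With library 3 alone left out 23 members were higher and 10 lower, and with library 4 alone left out 19 and 14. Without the 2 Swhtr null libraries numbered 2, 27 were higher, 13 of them at an unadjusted p under 0.05, and 0 were called. Both sets of libraries were left out after the values had been seen. Macrophage markers were higher in 3 of 12 cases and lower in 9, with a median of -0.042, and without the libraries numbered 2 they were higher in 12 of 12, with a median of 0.16.

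Ifit1 (chr19:34640871-34650009), which binds RNA that lacks a host cap, had the smallest p. It had 1.27, 1.01, 2.54 and 2.77 CPM in untreated Swhtr null slices, against 0.630, 1.21, 0.607 and 0.819 CPM in untreated WT slices. Libraries 3 and 4 were the highest of all, and library 2 of Swhtr null slices lay below the highest WT library, so the groups overlapped. The log2 fold change was 1.22 (SE 0.35, unadjusted p = 0.00232, adjusted p = 0.806 by edgeR). Usp18 (chr6:121245906-121270917), the protease that removes ISG15 and damps receptor signalling, had 1.69, 0.675, 1.55 and 1.44 CPM in untreated Swhtr null slices, against 0.892, 0.788, 0.654 and 0.674 CPM in untreated WT slices. The log2 fold change was 0.84 (SE 0.34, unadjusted p = 0.0231, adjusted p = 0.903 by edgeR), and library 2 was again the one within the WT range. Isg15 gave 0.54 (SE 0.24, unadjusted p = 0.0319) and Irf1 0.20 (SE 0.09, unadjusted p = 0.0464), from 18.8, 20.5, 21.9 and 23.5 CPM of Irf1 in untreated Swhtr null slices and the WT values given above.

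Mx1 and Mx2, neighbouring antiviral GTPases on chromosome 16, are named because they also fell under an unadjusted p of 0.05, although they are below 1 CPM and were picked after their values were seen. Mx1 had 0.0941, 0, 1.80 and 0.359 CPM in untreated Swhtr null slices, against 0, 0.0525, 0.0467 and 0.0963 CPM in untreated WT slices, so that library 3 alone carried most of the difference (unadjusted p = 0.0089). Mx2 had 0.800, 0.281, 0.948 and 1.18 CPM in untreated Swhtr null slices, against 0.367, 0.578, 0.374 and 0.385 CPM in untreated WT slices (unadjusted p = 0.0344). Both sets overlapped.

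By role, with 0 members called, the fitted change in untreated Swhtr null slices was above 0 in all members of the ISG15 group (3 of 3), the IFIT family (3 of 3), the OAS family (5 of 5) and the transcription factors (4 of 4), where 49.8% of all genes were above 0. The medians of these groups were 0.54, 0.60, 0.30 and 0.12. Of the MX and GBP GTPases 3 of 4 were above 0, with a median of 0.51, and of the other effectors 5 of 8, with a median of 0.098. Without untreated Swhtr null libraries 3 and 4 the ISG15 group was still above 0 in 3 of 3 (median 0.15) and the GTPases in 3 of 4 (0.028), but the IFIT family in 2 of 3 (0.032), the OAS family in 2 of 5 (-0.18), the transcription factors in 1 of 4 (-0.084) and the other effectors in 2 of 8 (-0.085), where 47.9% of all genes were above 0. The OAS enzymes make 2-5 oligoadenylate, which activates RNase L. Oas1a, the OAS gene highest per exon length (chr5:120896256-120907521), had 13.4, 7.99, 13.2 and 17 CPM in untreated Swhtr null slices, against 9.39, 10.1, 10.7 and 12.3 CPM in untreated WT slices (log2 fold change 0.28, SE 0.22). The nucleic acid sensors Ifih1, Ddx58, Dhx58 and Zbp1 split 2 and 2 with a median of -0.016 in the 16 libraries, and the membrane proteins Bst2 and Ifitm3 were at -0.036 and -0.023.

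**Figure D4:**
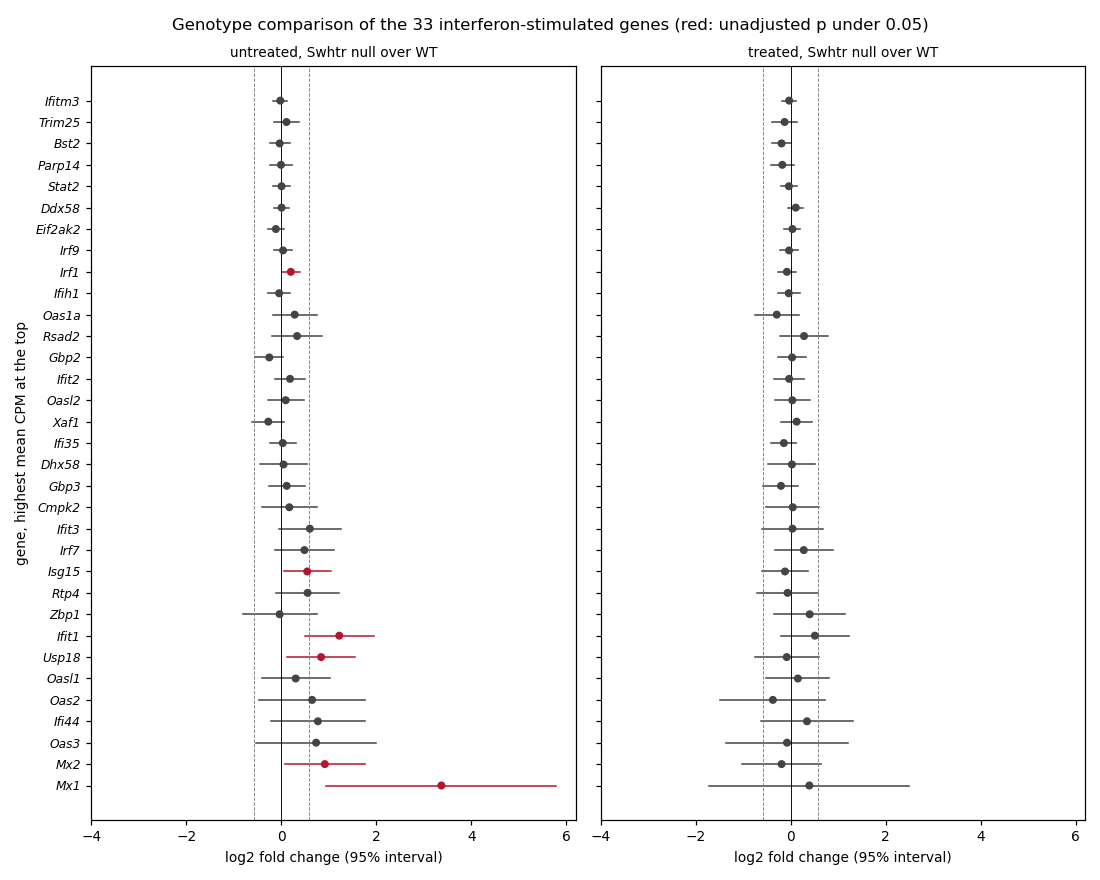
Log2 fold change of Swhtr null over WT slices with 95% intervals for the 33 genes, untreated on the left and treated on the right; dashed lines mark 1.5-fold and red marks an unadjusted p under 0.05. Untreated, 4 of the red genes (Ifit1 at 1.22, Usp18 at 0.84, Mx1 and Mx2) lie past 1.5-fold with wide intervals, and treated, no gene is red.

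In treated slices, Swhtr null against WT, 0 of 33 members were called (0.036% of all genes higher and 0.0561% lower) and 0 had an unadjusted p under 0.05 in edgeR, DESeq2 or limma (2.88% and 3.36% of all genes). Of the members, 15 were higher in Swhtr null slices and 18 lower, against 49.7% and 50.2% of all genes, with a median of -0.033. Macrophage markers were lower in 12 of 12 cases, with a median of -0.56 and 0 at an unadjusted p under 0.05. Cardiomyocyte markers were higher in 8 of 8 cases, with a median of 1.05 and 1 at an unadjusted p under 0.05. The part of either cell type in the members' values was not tested. The smallest p was that of Bst2, with 51.4, 46.0, 62.0 and 59.7 CPM in treated Swhtr null slices against 60.6, 64.2, 64.6 and 61.2 CPM in treated WT slices (log2 fold change -0.19, SE 0.10, unadjusted p = 0.0657, adjusted p = 0.767 by edgeR). Parp14 (chr16:35832874-35871544), an ADP-ribosyltransferase of macrophage signalling, had 32.7, 29.3, 39.4 and 36.3 CPM in treated Swhtr null slices, against 39.6, 35.2, 38.5 and 42.5 CPM in treated WT slices (log2 fold change -0.18, SE 0.11). Ifit1 had 1.01, 1.49, 1.09 and 1.71 CPM in treated Swhtr null slices, against 0.768, 1.27, 0.919 and 0.758 CPM in treated WT slices. Its log2 fold change was 0.51 (SE 0.34, unadjusted p = 0.153, adjusted p = 0.782 by edgeR), and the groups overlapped. Ddx58 (chr4:40203773-40239828), which encodes RIG-I, had 35.1, 37.7, 34.7 and 36.6 CPM in treated Swhtr null slices, against 34.5, 34.9, 29.6 and 35.0 CPM in treated WT slices (log2 fold change 0.11, SE 0.08). Ifi35 was the only member whose groups did not overlap, with 8.24, 7.87, 7.87 and 6.49 CPM in treated Swhtr null slices below the treated WT values given above; 2.94% of genes of at least 1 CPM separated in that direction and 2.18% in the other.

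The difference of the responses, treatment in Swhtr null minus treatment in WT, was called for 0 of 33 members and for 0% of all genes. Of the members, 6 were above 0 and 27 below, against 50.2% and 49.8% of all genes, and the median was -0.17, with 0.0015 for all genes. Macrophage markers were below 0 in 12 of 12 cases (median -0.56), fibroblast markers above 0 in 7 of 7 (0.22) and endothelial markers above 0 in 6 of 6 (0.27). With all libraries and no block 0 of these markers were called, and with the block within genotype 1 macrophage marker was called below 0. Cardiomyocyte markers, low in level, were above 0 in 7 of 8 cases (median 1.72), with 0 called in the fit without a block. The part of any of these cell types in the members' values was not tested. This comparison uses the same 16 libraries as the others, so it is no separate evidence. At an unadjusted p under 0.05, 1 member was below 0 (3.63% of all genes were) and 0 above (3.26%); DESeq2 and limma each gave 1 below, and the block by library number 3 below, as did the block within genotype. Without untreated Swhtr null library 2 the count was 6 below, as it was without both Swhtr null libraries numbered 2. It was 0 below without untreated Swhtr null library 3 or 4 or treated Swhtr null library 1 or 3. The same held without untreated WT library 3 or 4 or treated WT library 4. Leaving out untreated WT library 4 gave 1 member above instead. With all libraries the member was Irf1, at -0.28 (SE 0.13, unadjusted p = 0.0456, adjusted p = 0.715 by edgeR), followed by Isg15 at -0.67 (SE 0.33), Usp18 at -0.92 (SE 0.47) and Oas1a at -0.58 (SE 0.31). Without untreated Swhtr null libraries 3 and 4, 20 members were above 0 and 13 below, with a median of 0.023, and 0 had an unadjusted p under 0.05.

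Among the transcription factors that define the response, the groups of Irf7 and of Irf9 overlapped in all 4 pairwise comparisons. Irf7, which drives the later wave of interferon genes and lies at chr7:141262706-141266481, had 3.43, 4.35, 2.14 and 3.14 CPM in treated and 2.26, 2.14, 3.64 and 6.15 CPM in untreated Swhtr null slices, and 2.30, 3.12, 2.96 and 2.40 CPM in treated and 2.05, 3.41, 2.71 and 1.97 CPM in untreated WT slices. Its single highest value was untreated Swhtr null library 4. Irf9, the DNA-binding partner of STAT2 (chr14:55603571-55610030), had 25.9, 26.5, 27.2 and 25.9 CPM in treated and 25.3, 22.6, 25.9 and 32.4 CPM in untreated Swhtr null slices, and 27.5, 27.0, 27.9 and 25.9 CPM in treated and 29.1, 25.2, 24.9 and 24.7 CPM in untreated WT slices. Untreated Swhtr null library 4 was again the highest of Irf9. Their log2 fold changes lay between -0.12 and 0.49 over the 4 pairwise comparisons, all with unadjusted p of 0.121 or more.

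**Figure D5:**
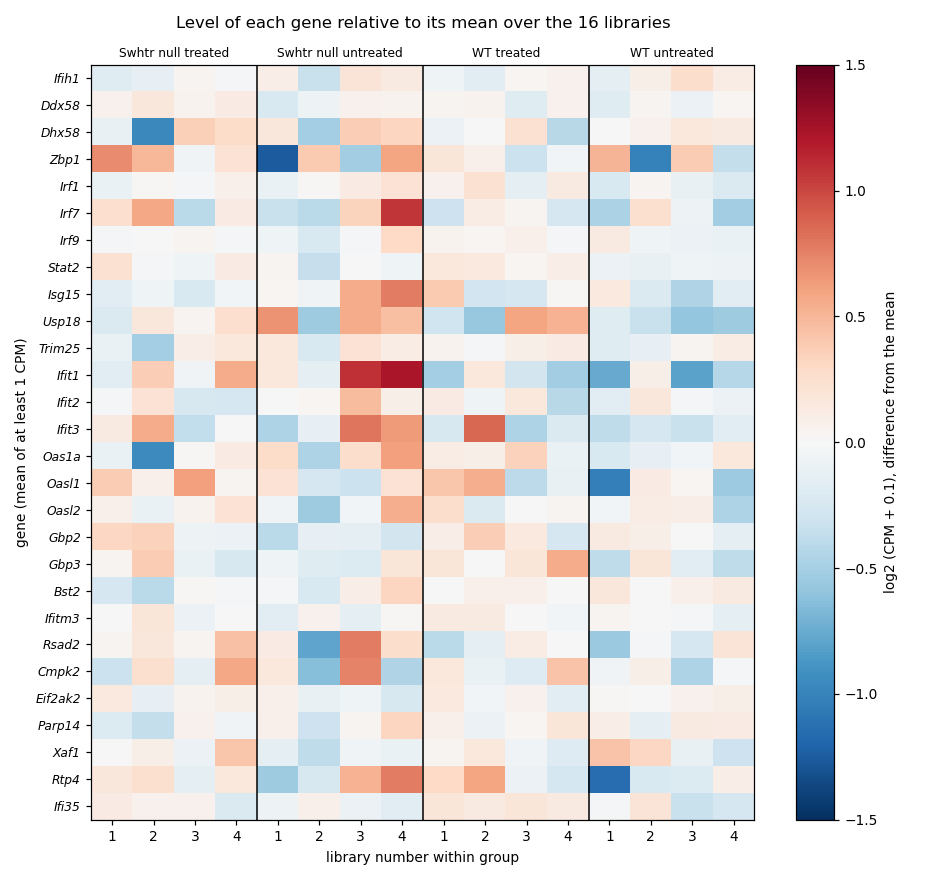
Level of each of the 28 genes of at least 1 CPM in each library as log2 (CPM + 0.1) minus the mean of the gene over the 16 libraries; columns are libraries by number within group. Untreated Swhtr null libraries 3 and 4 hold the reddest cells of Ifit1 and Isg15, and the Swhtr null libraries numbered 2 the bluest ones of Dhx58 and Oas1a.

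Averaged over the 28 members of at least 1 CPM, the mean log2 CPM was 3.21 ± 0.05 in treated and 3.22 ± 0.24 in untreated Swhtr null slices, and 3.20 ± 0.04 in treated and 3.06 ± 0.06 in untreated WT slices (SD, n = 4). The spread of untreated Swhtr null libraries was the widest, their values being 3.11, 2.93, 3.37 and 3.45. For 20 of the 33 members the SD was largest in that group. The share of all genes with the largest SD there was not computed, so this count is not shown to be particular to the members.

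Upstream of these genes, the ligands were almost unread. Of 11 interferon ligands, 8, Ifnb1 and 5 Ifna genes included, had 0 counts in all 16 libraries, which allows up to 0.00844 CPM over the series; the other 3 had 14 counts in all. This bears on counting error only. The receptors were read throughout, with Ifnar1 at 145 CPM, Ifnar2 at 79.9 CPM and Ifngr1 at 123 CPM on average, as were the kinases Jak1 (360 CPM) and Tyk2 (58.0 CPM). Sting1, the adaptor that relays cytosolic DNA sensing, stood at 41.2 CPM and its sensor Cgas at 7.21 CPM. No gene of these lists was called in any comparison.

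Among 47 further interferon-stimulated genes, 20 were higher and 27 lower in treated Swhtr null slices, against 51.6% and 48.3% of all genes. At an unadjusted p under 0.05, 3 were higher and 4 lower, near the shares of all genes (8.69% and 7.84%), and 0 were called. Slfn5, of the Schlafen family, passed the adjusted p but not the fold threshold: it had 113, 110, 114 and 132 CPM in treated Swhtr null slices, against 85.3, 80.8, 93.3 and 77.6 CPM in untreated Swhtr null slices, and the groups did not overlap. Its log2 fold change was 0.47 (SE 0.07, adjusted p = 0.00383 by edgeR). In WT slices Slfn5 was at 118, 116, 107 and 99.6 CPM treated against 95.2, 89.2, 91.0 and 92.0 CPM untreated (log2 fold change 0.26, SE 0.07, unadjusted p = 0.00173, adjusted p = 0.999 by edgeR). The WT groups did not overlap either. Of genes of at least 1 CPM, 5.19% separated with treated slices higher in Swhtr null slices and 2.38% in WT slices. Gbp5 had a log2 fold change of 1.02 in WT slices (SE 0.30, unadjusted p = 0.00278, adjusted p = 0.999 by edgeR) and -0.09 (SE 0.28) in Swhtr null slices. Of the receptors and regulators, Il10rb at -0.31 (SE 0.12, unadjusted p = 0.0151) and Pias1, a SUMO ligase, at -0.24 (SE 0.09, unadjusted p = 0.0104) had the smallest p in Swhtr null slices, and Irf3 at 0.18 (SE 0.07, unadjusted p = 0.0129) and Myd88 at 0.16 (SE 0.07, unadjusted p = 0.0299) in WT slices; none passed the adjusted threshold.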

How the data were processed

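RNA-seq was measured in 16 libraries of cultured mouse heart slices. Per the study's methods, the authors aligned reads with STAR (build mm10 in the submitters' processing notes) and made raw counts per gene with GenomicAlignments on Ensembl GRCm38.102 models. The deposited values are those counts, unnormalized, with 17830351 to 29941903 counts per library. The labels name a TruSeq kit and the methods ScriptSeq after ribosomal RNA depletion, and the strand setting is not given in the sources used here, so antisense reads may be mixed in. The members and lists were chosen with earlier results of these data known.

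Genes with at least 10 counts over the 16 libraries (24971 of 55487) were tested with edgeR 4.0.16 in R 4.3.3 (TMM, robust quasi-likelihood, 1 fit of 4 group means, 12 residual degrees of freedom, Benjamini-Hochberg adjustment). Calls needed an adjusted p under 0.05 and a log2 fold change beyond 0.58. CPM used TMM-scaled library sizes, and levels per kb the exon length of GENCODE M21. Named genes were, per comparison, the 4 members of at least 1 CPM with the smallest p, the 5 with the highest mean CPM, and Irf7, Irf9, Stat2, Isg15 and Ifit1. Of the other pathway lists, the 3 genes with the smallest p in each treatment comparison were considered. Alternatives were DESeq2 1.42.0, limma 3.58.1 with library quality weights, other size factors and filters, and only the compared libraries. Further ones were no fold threshold, a block by library number, and leaving out each library. Deviations of same-numbered treated and untreated libraries had correlations of 0.15, 0.59, 0.26 and 0.40 in Swhtr null slices. In WT slices they were -0.11, -0.084, 0.16 and 0.32. Unlike-numbered libraries reached 0.33 in Swhtr null slices (treated 3, untreated 4) and 0.43 in WT slices (treated 1, untreated 2). Same-numbered untreated libraries of the 2 genotypes, from different mice, reached 0.38 (number 2) and 0.37 (number 4). The correlations therefore do not establish a pairing. The block by library number is a guess from these same counts and not from the labels, and its counts carry that limit.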

Additional observations from a re-analysis of the deposited data

Results flagged for a closer look

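In 4 of 112 sets of 4 libraries, each a gene of at least 1 CPM in 1 group, a single library lay far from the other 3, where chance gives about 5.6. Ddx58 was 29.64 CPM in treated WT library 3, with the other treated WT libraries between 34.45 and 34.97 CPM. Irf9 was 29.07 CPM in untreated WT library 1, against 24.66 to 25.16 CPM in the others. Ifit3 was 5.446 CPM in treated WT library 2, against 2.129 to 2.528 CPM in the others. Parp14 was 33.88 CPM in untreated WT library 2, against 40.35 to 41.34 CPM in the others. All 4 libraries were WT, and none was the same library as another's.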

How the results depend on the processing

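The count of interferon-stimulated genes called stayed at 0 in every comparison under all alternatives run: DESeq2, limma, other size factors and filters, the compared libraries alone, no fold threshold, the replicate block, each library left out, and the libraries left out after seeing the data. With the replicate block in Swhtr null slices the count over all genes was 450, and 616 within genotype, against 155 without it; it was 464 with DESeq2, 544 without the fold threshold and 6 with the compared libraries alone. With 1 library left out it lay between 22, without untreated Swhtr null library 4, and 575, without untreated Swhtr null library 2; it was 49 without untreated library 3, 77, 80 and 300 without treated libraries 1, 2 and 3. The 6 members at an unadjusted p under 0.05 for genotype in untreated slices were 1, 3 and 10 without Swhtr null library 3, 4 and 2, and 2 without WT library 3 or 4. For treatment in WT slices the 3 such members were 1 without untreated library 1, 3 or 4 or treated library 1 or 4, and 2 without treated library 2. In WT slices the count over all genes was 0, and 9 with DESeq2, 19 with the block within genotype. Swhtr null against WT in treated slices gave 23, and 39 with DESeq2. The difference of the responses gave 0, and 52 with the block within genotype. The block left the calls of the members unchanged. The median log2 fold change of the members ranged, with 1 library left out at a time, from -0.23 to -0.020 for treatment in Swhtr null slices, from 0.062 to 0.15 in WT slices, from 0.082 to 0.25 for genotype in untreated slices, from -0.053 to 0.012 in treated slices and from -0.28 to -0.16 for the difference of the responses.

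Leaving out untreated Swhtr null libraries 3 and 4 together gave medians of 0.13 for treatment in Swhtr null slices, -0.053 for genotype in untreated slices and 0.023 for the difference. It also turned the direction of Irf7 (0.57), Irf9 (0.14) and Ifit1 (0.21) for treatment in Swhtr null slices, and of Irf7 (-0.20), Irf9 (-0.11) and Stat2 (-0.053) for genotype in untreated slices. The block turned Stat2 for genotype in untreated slices (-0.00062) and, within genotype, Irf9 for treatment in Swhtr null slices (0.0021). With 1 library left out, treatment in Swhtr null slices ranged from -0.30 to 0.28 for Irf7 and from -0.077 to 0.10 for Irf9, treatment in WT slices from -0.014 to 0.26 for Irf7 and from -0.015 to 0.28 for Isg15, and genotype in untreated slices from -0.040 to 0.081 for Stat2 and from -0.076 to 0.10 for Irf9. The cause was not tested; none of these values was called. In all, 517 of 537 recomputed values of named genes kept their direction and 20 reversed, while none was called in any fit. Many of these values were named for a small p and all fits share libraries, so the tally is no separate evidence. For the 5 genes under 1 CPM no 95% interval of a treatment comparison lay within 2-fold.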
